A study of Mus musculus with 10 samples.

Results

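The open chromatin around 3 genes of early fat cell formation, Klf4, Klf5 and Egr2, was described in 3T3-L1 cells 4 h after the start of differentiation. 3T3-L1 is a mouse fibroblast line that turns into fat cells on hormonal induction. DNase I cuts accessible DNA, so a stretch rich in cuts marks a DNase I hypersensitive (DHS) site, and a short uncut interval inside it, a footprint, marks DNA shielded by bound protein. The members were all DHS sites touching a window of about 100 kb on each side of each gene by 1 bp or more, with the footprints inside them. On the mm9 genome the windows were chr4:55440000-55645000 for Klf4, chr14:99600000-99815000 for Klf5 and chr10:66897000-67105000 for Egr2. They held 31 of the 129028 DHS sites and 147 of the 329076 footprints of the deposited lists. Klf4 had 12 sites and 61 footprints, Klf5 9 sites and 39 footprints, and Egr2 10 sites and 47 footprints.

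The DNase group comprised 2 samples, which are repeat sequencing runs (1 of them paired-end) of the same library, from cells kept 4 h in 1 µM dexamethasone (a glucocorticoid), 0.5 mM 3-isobutyl-1-methylxanthine (which raises cyclic AMP), 1 µg/mL insulin and 10% fetal calf serum. The authors pooled both runs with earlier reads of that library before making their lists. There was thus 1 library, with no replicate and no uninduced DNase sample, so no difference in this text carries a test, and whether these sites opened after induction was not analysed here. The lists give no read counts, and the depth behind each site and footprint is unknown. The 8 RNA samples of the study, cells with a scrambled shRNA or one against C/EBPβ at 0 h and 4 h, were not analysed here.

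The 3 genes encode zinc finger transcription factors that bind GC-rich DNA. In the known early adipogenic cascade, Krox20 (the product of Egr2) and KLF4 act together upstream of Cebpb, the gene of C/EBPβ, and KLF5 is induced by C/EBPβ and C/EBPδ and helps to activate Pparg, the master gene of the fat cell. Egr2 and Klf4 are also immediate early genes, which many cells switch on within the first hours of a serum or cyclic AMP stimulus. Their control regions are therefore a place where proteins bound early could be looked for.

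The DNA before the annotated starts is shown first, as the sequence next to which transcription of these genes begins. RefSeq (GRCm38.p6) gave 6 promoters for 2 of the 3 genes, 1 for Klf4 and 5 for Egr2, and none was matched for Klf5. The 250 bases before the start are printed 5′ to 3′, with capitals for every match to a searched word. Positions are negative and count back from the start. The coordinates are on GRCm38.p6, a different build from the mm9 of the sites, and the promoters were not placed on the sites.

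Klf4, chr4:55532476-55532725, minus strand: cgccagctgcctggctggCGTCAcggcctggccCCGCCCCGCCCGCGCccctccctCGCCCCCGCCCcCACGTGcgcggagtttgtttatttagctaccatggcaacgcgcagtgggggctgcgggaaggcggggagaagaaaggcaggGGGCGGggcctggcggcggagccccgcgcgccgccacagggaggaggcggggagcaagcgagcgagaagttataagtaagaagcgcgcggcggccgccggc
Egr2 start 1, chr10:67535249-67535498, plus strand: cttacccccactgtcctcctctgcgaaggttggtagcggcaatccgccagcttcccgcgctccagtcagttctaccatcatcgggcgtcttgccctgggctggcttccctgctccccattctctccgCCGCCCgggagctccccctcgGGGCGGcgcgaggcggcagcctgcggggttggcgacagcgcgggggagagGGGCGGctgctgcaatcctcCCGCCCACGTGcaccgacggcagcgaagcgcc
Egr2 start 3, chr10:67537619-67537868, plus strand: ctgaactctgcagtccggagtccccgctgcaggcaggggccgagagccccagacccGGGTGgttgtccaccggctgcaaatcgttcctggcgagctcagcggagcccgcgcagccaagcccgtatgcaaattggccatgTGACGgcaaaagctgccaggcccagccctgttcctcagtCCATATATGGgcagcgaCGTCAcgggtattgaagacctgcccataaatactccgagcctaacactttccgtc

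The Klf4 promoter held words of the SP/KLF and EGR families, and the Egr2 promoter at its start 3 words of the serum and cyclic AMP response. In Klf4, the GC box GGGCGG, the word of SP and KLF proteins, occurred 4 times, at -217, -212, -189 and -101. The EGR word GCGNGGGCG occurred 2 times, at -211 and -194, each time overlapping a GC box. A GC box was present in 32.7% of all 32851 RefSeq promoters and an EGR word in 4.70%. The GC content of this stretch was 74.0% in Klf4 against a median of 52.4% over all promoters, and GC-rich words are more frequent in such DNA. The Klf4 stretch also held the core of the cyclic AMP response element, TGACG, 1 time at -232, a word present in 17.8% of promoters.

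At Egr2 start 3, 2370 bp past start 1, a CArG box, the word bound by serum response factor, lay at -72 to -63. The TGACG core lay on each strand, at -111 and at -55. A CArG box was present in 1.47% of all promoters. Starts 4 and 5, 2371 and 2431 bp past start 1, lie so close that their stretches share these 3 words. Start 2 had another CArG box at -72 and 1 GC box, and start 1 had 4 GC boxes and neither a CArG box nor TGACG. The CACCC box (CACCC, in 52.0% of promoters) was found at -194 of start 3 and in the overlapping stretch of start 4 alone. The full cyclic AMP element TGACGTCA, the AP-1 word TGANTCA, the C/EBP word TTGCNNAA and the glucocorticoid receptor word TGTTCT matched none of the 6 stretches. Their shares over all promoters were 1.55%, 6.75%, 9.56% and 16.1%. An E-box, CACGTG, lay at -182 in Klf4 and at -27 at Egr2 start 1. That word, in 6.02% of promoters, was added to the search after the sequences were seen. Both strands were read, and a match describes letters and not binding.

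The number of open sites at each gene was near that of the genome. Sites carrying footprints were most common at Klf4 and least common at Klf5, with site width not taken into account. Klf4 had 5.85 sites per 100 kb of window, Egr2 4.81 and Klf5 4.19, against 5.00 over the genome. A footprint was present in 10 of 12 Klf4 sites (83.3%, 95% Wilson interval 55.2 to 95.3%), 7 of 10 Egr2 sites (70.0%, 39.7 to 89.2%) and 3 of 9 Klf5 sites (33.3%, 12.1 to 64.6%). The intervals overlap, cover counting error only and treat sites as independent. Over all DHS sites of the list the share was 45.4%. Together, 20 of the 31 sites (64.5%, 46.9 to 78.9%) held a footprint. With only the stronger 50% of the list's footprints, 5 of 12 Klf4 sites (41.7%), 4 of 10 Egr2 sites (40%) and 2 of 9 Klf5 sites (22.2%) kept one, against 27.9% of all sites, so Klf4 and Egr2 then stood level.

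At Klf5 most sites were narrow. The median site was 631.5 bp wide at Klf4 and 729 bp at Egr2, against 532 bp in the list, and only 372 bp at Klf5. Narrow sites mostly hold no footprint. For each Klf5 site without one, 84.9 to 94.1% of the list's sites within 10% of its width had none either. Sites of 1000 bp or more numbered 3 at Klf4, 3 at Egr2 and 1 at Klf5, 7 of 31 in all, with 11.6% in the whole list. Sites with 10 or more footprints numbered 3 at Klf4, 2 at Egr2 and 1 at Klf5, 6 of 31, with 7.88% in the whole list. Wide sites hold more footprints throughout the list, so both counts move together.

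**Figure D1:**
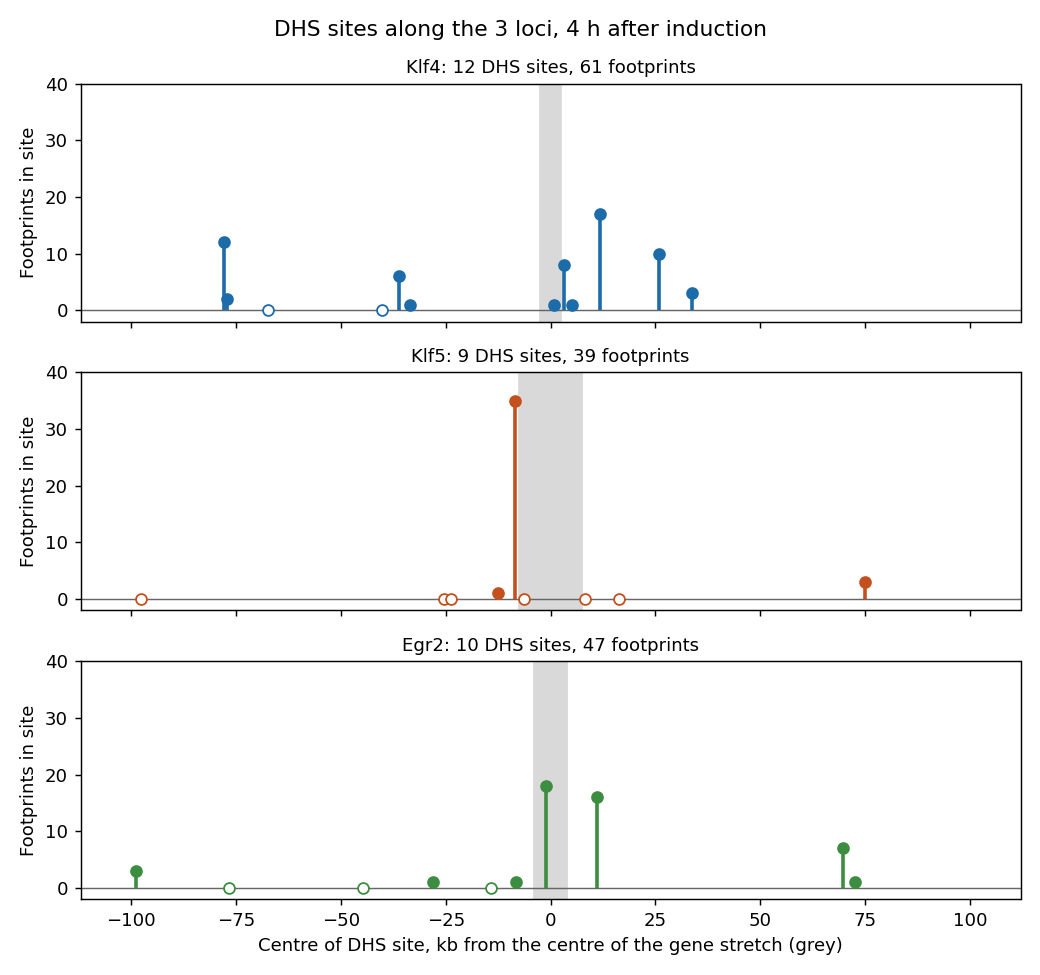
Each stem is a DHS site, placed by the distance of its centre from the centre of the gene stretch (grey) in kb, with the number of footprints it holds as height, and open circles mark sites with no footprint. The 39 footprints of Klf5 stand almost wholly in 1 site at the edge of the gene stretch, while those of Klf4 are spread over 10 sites.

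The loci differed in how their footprints were arranged around the gene. Each window less 100 kb on both sides leaves a stretch that stands for the gene, of 5 kb at Klf4, 15 kb at Klf5 and 8 kb at Egr2. These compare with RefSeq gene lengths of 5339, 14722 and 7720 bp on GRCm38. Within 10 kb of this stretch lay 36 of 39 Klf5 footprints (92.3%), 35 of 47 Egr2 footprints (74.5%) and 27 of 61 Klf4 footprints (44.3%). The zones differ in length as the stretches do, and the same share over all genes was not computed. Beyond 10 kb there were 6 footprinted sites of 8 at Klf4, 4 of 7 at Egr2 and 1 of 4 at Klf5. A limit of 5 kb lowered the shares to 16.4% at Klf4 and 40.4% at Egr2, because a footprint-rich site of each lay between the limits. Among the stronger 50% of footprints the shares within 10 kb were 95.5% at Klf5, 84.2% at Egr2 and 53.6% at Klf4.

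At Klf4 the sites, numbered from the low end of the window, formed 4 groups when those 10 kb or less apart were joined. Sites 1 to 3 held 14 footprints together, sites 4 to 6 held 7, sites 7 to 10 held 27 and sites 11 and 12 held 13. Klf4 is transcribed from the minus strand, per RefSeq, so its start faces the high end of the window. Sites 7 to 12 thus lay at the gene or before its start, and sites 1 to 6 beyond its end. In RefSeq, the noncoding RNA genes Gm12506, Gm34343 and Gm12511 neighbour Klf4 on the start side within 100 kb, and no other protein-coding gene does so on either side. On GRCm38, Gm12506 lies 0.235 kb from Klf4 and is 106480 bp long. Sites before the Klf4 start may thus lie within Gm12506, and they were not assigned to a gene.

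Klf4 site 8, chr4:55545121-55546517, was the widest of the locus (1397 bp) and lay 121 bp past the high end of the gene stretch. It held 8 footprints, fewer than the median of 11 in the 3778 sites of the list within 10% of its width. Of these, 7 stood in a stretch of 296 bp, chr4:55545342-55545637, off the middle of the site. The strongest of them, chr4:55545487-55545503, named after its value was seen, had a deposited score of -8.62, which 5.28% of the list reached. That score is the authors' own value and negative throughout, it comes with no stated scale, and more negative values were read as stronger. Site 7, chr4:55542908-55543587, was the only one overlapping the gene stretch, and it held a single footprint in 680 bp (median of same-width sites 2). The stretch only approximates the gene, so site 8, 121 bp from it on the start side, may overlap the gene as well.

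The richest Klf4 site lay 8.68 kb beyond the gene stretch on the start side. This was site 10, chr4:55553680-55555012, with 17 footprints in 1333 bp, where sites of like width had a median of 10 and 15.8% had as many. Its strongest footprint, the third of the locus by score, was chr4:55554539-55554567, with a score of -8.74. Site 11, chr4:55567980-55568624, was only 645 bp wide but held 10 footprints, end to end within 301 bp. Sites within 10% of that width had a median of 1, and 67 of 22273 (0.301%) had 10 or more. This was the lowest such share among the 31 sites looked at. The median score in site 11 was -4.18, weaker than that of the list, and its lowest was -5.87. Site 5, chr4:55506022-55506617, was similar in kind, with 6 footprints packed into 129 bp of a 596 bp site. As many were found in 4.22% of same-width sites. All 6 were weaker than the list's median score of -4.38, the lowest being -4.30.

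The 2 footprints with the lowest scores of the 3 loci lay in a distal site of the Klf4 window. Klf4 site 1, chr4:55464085-55465084, lay 74.9 kb beyond the gene's end and held 12 footprints in 1000 bp, against a same-width median of 7. Its footprint at chr4:55464758-55464787 scored -12.5, a value reached by 1.41% of the list, and its neighbour at chr4:55464811-55464829 scored -9.56. Both belonged to a block of 11 footprints that covered 57.0% of a 309 bp stretch. Site 3, chr4:55474811-55475312, was the widest Klf4 site with no footprint (502 bp). Among sites of like width 68.4% had none.

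At Klf5 nearly everything was in 1 broad site. Site 5, chr14:99697176-99700766, was 3591 bp wide, made up 54.7% of the DHS sequence of the locus and held 35 of its 39 footprints (89.7%). It straddled the low edge of the gene stretch. The 140 sites of the list within 10% of its width held a median of 31 footprints (10th to 90th percentile 10 to 52), and 54 of them (38.6%) held 35 or more. Its number of footprints was thus inside the range of sites of that width.

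Within that site the footprints formed separate blocks. Joining footprints 100 bp or less apart gave a block of 16 in 493 bp at the low end, chr14:99697514-99698006, a block of 13 in 553 bp near the centre, chr14:99698859-99699411, and a block of 4 in 177 bp, chr14:99699812-99699988. The remaining 2 footprints stood alone. The 3 strongest of the locus were all in the first block, at chr14:99697908-99697917 (score -6.44), chr14:99697761-99697777 (-6.20) and chr14:99697628-99697639 (-6.04). The median score was -5.12 in the first block and -4.30 in the second. Of its 35 footprints, 15 (42.9%) lay in the inner part of the site (centre-to-centre distance at most 50% of that from centre to edge), against 59.4% in the 140 sites of like width.

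The other 8 Klf5 sites were narrow, from 251 to 677 bp, and held 4 footprints in all. Site 9, chr14:99782193-99782869, 67.2 kb beyond the gene stretch, had 3, and site 4, chr14:99694820-99695280, had 1. Site 6, chr14:99701083-99701337, inside the gene stretch, was 255 bp wide and had none, as did 94.0% of sites of like width. The widest without a footprint was site 1, chr14:99609805-99610201 (397 bp), followed by site 8, chr14:99723725-99724096 (372 bp). Pibf1 is the only protein-coding RefSeq neighbour within 100 kb, on the low side. Which sites lie in it was not analysed here.

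At Egr2 a pair of wide sites, over and just beyond the gene, held most footprints. Site 7, chr10:66998660-67001213, was 2554 bp wide, overlapped the gene stretch and held 18 footprints, where the 545 sites of like width had a median of 21. A block of 8 footprints in 274 bp, chr10:67000080-67000353, contained the strongest footprint of the locus, chr10:67000114-67000134, with a score of -7.61 (reached by 8.16% of the list). The other 10 footprints were scattered over the site, singly or in blocks of 2 or 3. Site 8, chr10:67011412-67012770, 6.41 kb past the gene stretch, held nearly as many, 16 in 1359 bp, against a same-width median of 10. It contained the next strongest pair of the locus, chr10:67012083-67012112 (-6.92) and chr10:67012312-67012321 (-6.46).

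Egr2 has a close protein-coding neighbour on that side. In RefSeq, Ado, which encodes a thiol dioxygenase, is the next gene toward the high end and the only other protein-coding gene within 100 kb. A noncoding RNA gene of 39822 bp, Gm32255, overlaps Egr2 itself. On GRCm38, the low end of Ado lies 2.32 kb past Egr2, and Ado is 4445 bp long. Site 8 starts 6.41 kb past the gene stretch on mm9. Site 8 may thus overlap the high end of Ado. The strand of Ado was not read, so whether that end is its start was not analysed here. The 2 builds were not aligned, and the site was not assigned to Ado or Egr2. Farther out, site 9, chr10:67069986-67071197, 65.0 kb beyond the gene stretch, held 7 footprints in 1212 bp, close to the same-width median of 9. Site 1, chr10:66901735-66902562, at the opposite end, had 3. Site 4, chr10:66972518-66973380, had 1 in 863 bp, where the same-width median was 5, and site 3, chr10:66956128-66956757, was the widest without any (630 bp).

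**Figure D2:**
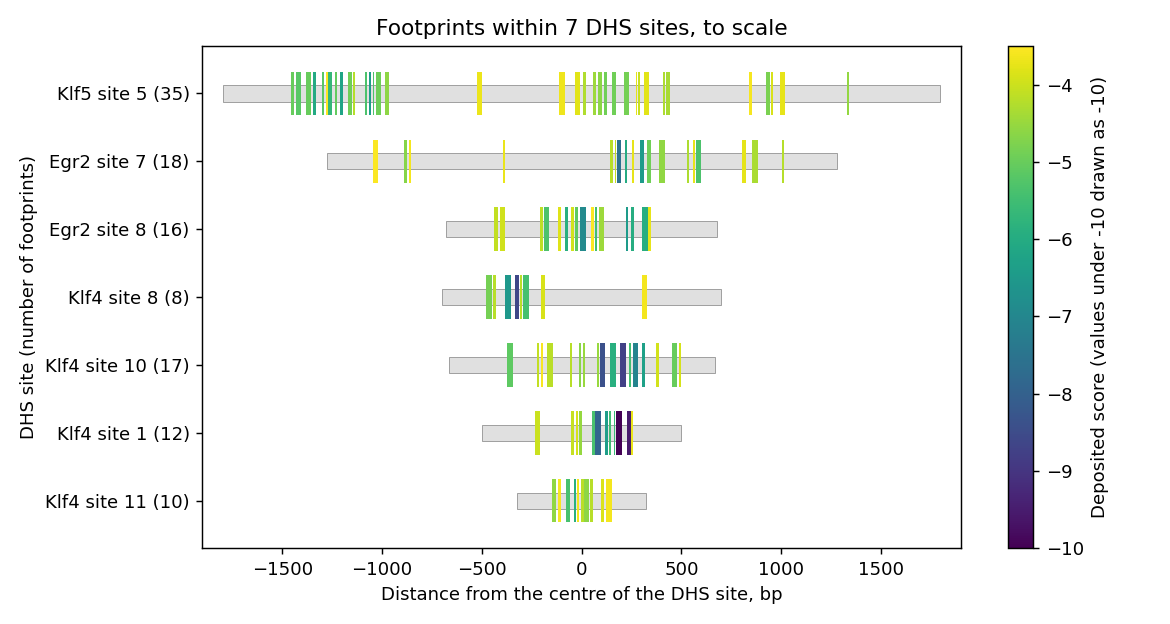
Grey bars are the 6 DHS sites with 10 or more footprints and Klf4 site 8, drawn to scale by distance from their own centre in bp, and coloured blocks are their footprints, darker for a lower (stronger) deposited score. Klf5 site 5 shows a dense block of 16 footprints at its low end and a second of 13 near its centre, and the darkest blocks are in Klf4 site 1.

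Per length of open DNA, footprints were denser at each of the 3 loci than over the list, but at Egr2 not once site width was considered. There were 6.86 footprints per kb of DHS sequence at Klf4 (95% Poisson interval 5.25 to 8.82), 5.94 at Klf5 (4.22 to 8.12) and 5.12 at Egr2 (3.76 to 6.81). The list had 4.08, which lies inside the Egr2 interval. The number predicted from genome-wide means in 50 classes of site width gave a ratio of observed to predicted of 1.43 at Klf4 (95% Poisson interval 1.09 to 1.83), 1.61 at Klf5 (1.15 to 2.20) and 0.883 at Egr2 (0.649 to 1.17). These intervals treat footprints as independent, which footprints of 1 site are not. The Klf5 ratio rested on site 5, whose class mean of 20.1 came mostly from narrower sites. With means of sites within 10% of the same width, a setting added after the data were seen, the ratio was 1.12 at Klf5, 1.45 at Klf4 and 0.873 at Egr2. Without site 5, Klf5 had 1.34 footprints per kb and a ratio of 0.980. Klf4 without its richest site, by the width classes, was at 1.37. That site was not the one furthest above its prediction. By the same classes, Klf4 site 11 held 10 footprints against 2.12 predicted, and Klf4 site 5 held 6 against 1.36. The Klf4 ratio without these narrow sites was not computed.

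**Figure D3:**
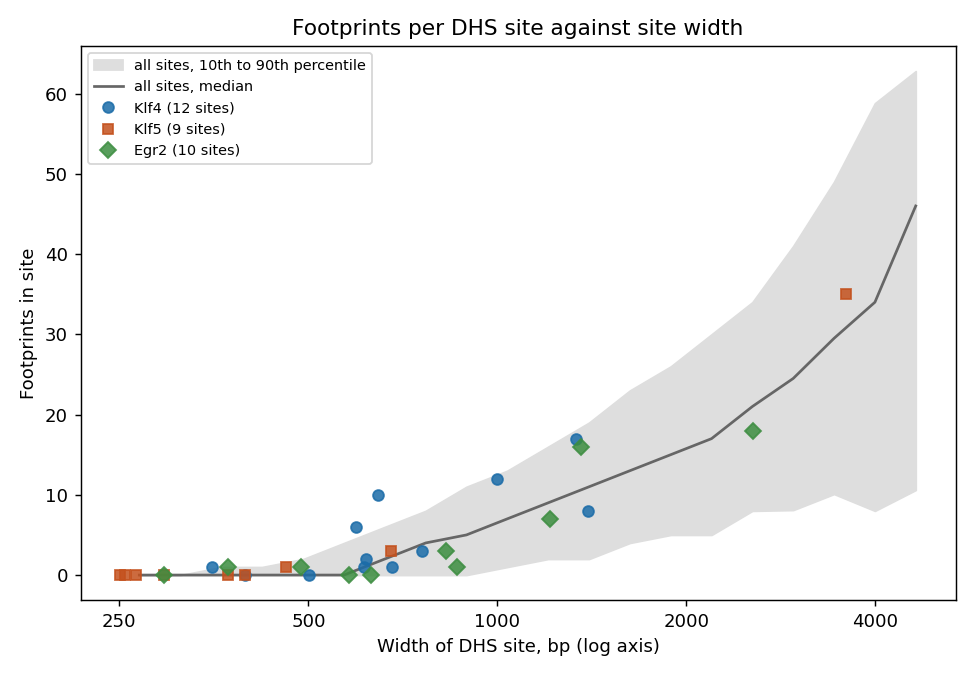
Each symbol is a DHS site of the 3 loci, with its width in bp on a log axis and its number of footprints, and the grey band and line give the 10th to 90th percentile and the median of all sites. Klf4 sites 5 and 11, with 6 and 10 footprints in 596 and 645 bp, stand above the band, and Klf5 site 5, with 35, is inside it.

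The surroundings were compared within 500 kb outside each window. Around Klf4 there were 5.40 sites per 100 kb with 3.91 footprints per kb, and around Klf5 4.90 with 3.82, both sparser in footprints than the windows. At Klf5 this rested on site 5, without which the window had 1.34 per kb, fewer than its flanks. Around Egr2 the flanks were the richer part, with 8.30 sites per 100 kb, 6.25 footprints per kb and a footprint in 79.5% of 83 sites. By the width classes, observed over predicted was 0.918 in the Klf4 flanks, 0.928 in the Klf5 flanks and 1.32 in the Egr2 flanks. Among the 12648 stretches of 200 kb with a DHS site, the median was 10 sites and 11 footprints (interquartile range 1 to 38). Per length, 14.0%, 26.3% and 20.5% of these stretches had as many footprints as the Klf4, Klf5 and Egr2 windows.

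Footprints of the 3 loci were short and of middling score. Their median width was 17 bp at Klf4, 16 bp at Klf5 and 17 bp at Egr2, against 21 bp in the list. Widths of 8 to 12 bp made up 26.2%, 35.9% and 29.8%, against 22.0% in the list. At the caller's limit of 30 bp were 7 of 61, 1 of 39 and 6 of 47, against 11.6% of all footprints. The median score was -4.20 at Klf4, -4.61 at Klf5 and -4.19 at Egr2, with -4.38 in the list. Footprints among the strongest 10% of the list (-7.17 or lower) numbered 6 at Klf4, 1 at Egr2 and 0 at Klf5. No footprint of the 3 loci had a score of -Inf, as 496 in the list did.

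**Figure D4:**
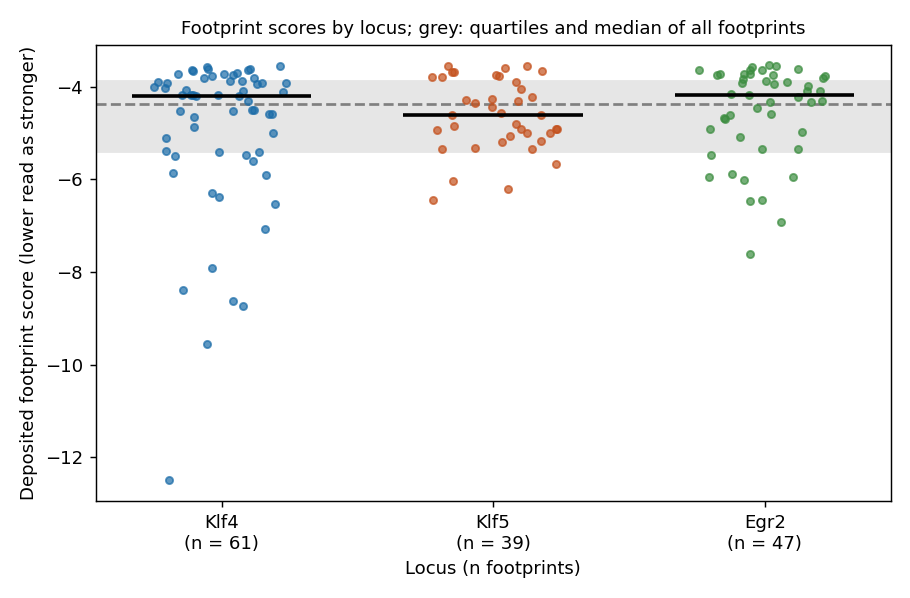
Points are the deposited scores of single footprints in each locus, black bars their medians, and the grey band and dashed line the quartiles and median of all footprints of the list. The medians of the 3 loci lie inside the band, and only Klf4 has footprints below -8.

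Spacing inside sites was close to the list except at Klf4. Of 51 gaps between neighbouring footprints at Klf4, 19 (37.3%) were under 10 bp, against 8 of 36 at Klf5 (22.2%), 9 of 40 at Egr2 (22.5%) and 24.4% of all gaps in the list. Of these 19 gaps, site 1 gave 6, site 11 gave 5, site 5 gave 4, site 8 gave 3 and site 10 gave 1. The median gap was 14 bp at Klf4, 20.5 bp at Klf5 and 24 bp at Egr2, with 20 bp in the list. Footprints lay in that inner part of their site in 53 of 61 cases at Klf4, 36 of 47 at Egr2 and 19 of 39 at Klf5, against 83.2% in the list. The list's share is not matched for width. It was 59.4% in sites as wide as Klf5 site 5 (42.9% in that site). In sites as wide as Egr2 site 7 it was 63.6% (66.7% in that site). In blocks of 5 or more footprints, each 100 bp or less apart, were 50 of 61 footprints at Klf4 (82.0%), 29 of 39 at Klf5 (74.4%) and 25 of 47 at Egr2 (53.2%), against 67.9% of all footprints.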

How the data were processed

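The authors called DHS sites and footprints on 1 pooled library from the 2 DNase samples and earlier reads, per the labels. Build mm9 and HOMER are named per the submitters' processing notes, which give no version or step, and no source used here names the footprint caller. The deposited site list holds positions alone. The deposited footprint list has a column headed p-value, which is negative throughout and was treated as a score, used for order only. From the file names, footprints passed a false discovery rate of 0.01 and could span at most 30 bp. Starts were raised by 1, on the assumption that both lists are in BED form. Read so, 27 pairs of neighbouring sites overlap by 1 bp, and site starts could be 1 too high.

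The 3 windows, their members and the lists were chosen with earlier results of these data known. A footprint belonged to the site it overlapped by 1 bp or more, which was checked with bedtools 2.31.1. All 329076 lay fully inside a site. Expected numbers came from mean footprints in 50 classes of site width (1410 to 5088 sites each), and intervals are Wilson or exact Poisson. Depth is unknown, and wider or more deeply cut sites can yield more footprints. Named sites were those overlapping the gene stretch, the 5 with the most footprints, the widest and the widest without a footprint, and named footprints the 3 with the lowest score per locus, plus the strongest of Klf4 site 8, chosen after its value was seen. Blocks, sites of like width and the E-box were added after the data were seen. Planned motif searches in footprints and counts at other early genes need mm9 sequence and gene models, which were not used here. The assignment of footprints to sites and the prediction from width classes were tested on simulated sites, all narrower than Klf5 site 5. The other steps were not tested in this way. Python 3.11.15, numpy 2.4.6, pandas 2.3.3, scipy 1.17.1 and matplotlib 3.10.9 were used.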

Additional observations from a re-analysis of the deposited data

How the results depend on the processing

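No paired analysis was possible because the authors pooled the runs of 1 library and the results come from no test. Of 84 values under alternatives, 71 stayed within 1.5 times the main count or within its counting interval, 13 moved and 0 reversed. Such wide intervals say little about stability. Keeping only sites fully inside the window removed no site or footprint at any locus, so the values under that setting could not move. With the stronger 50% of footprints the share of Klf4 sites with a footprint was 41.7%, and footprints per kb were 3.15 at Klf4, 3.35 at Klf5 and 2.07 at Egr2, since about as many footprints were dropped as kept. Windows of 50 kb each side left 6 Egr2 sites. The settings added after the data were seen moved Klf5 alone: without its richest site it had 1.34 footprints per kb and a ratio to prediction of 0.980, and with sites within 10% of the same width a ratio of 1.12. A limit of 5 kb gave 16.4% of footprints near Klf4 and 40.4% near Egr2. Joining sites at 5 kb gave 7 groups at Klf4, and at 20 kb 3 at Klf5 and 4 at Egr2, against 4, 5 and 7 at 10 kb. The unknown depth limits every count of footprints.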
